A study of Saccharomyces cerevisiae BY4741 with 24 samples.

Results

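The 40S ribosomal protein genes of Saccharomyces cerevisiae were taken as every gene whose name is RPS, a number and, where it has one, the letter A or B. The rule used names only. The annotation holds 56 such genes, and 55 of them were among the 1042 features (917 of them protein-coding genes) with a value, all in every comparison. RPS14B was not among them and has no value here. The 55 genes encode 32 proteins: 47 belong to pairs of near-identical A and B copies (paralogs), of which 23 have both copies measured, and 8 are single-copy genes, such as RPS2, RPS13 and RPS20. They lie on 14 chromosomes, and 35 of them carry an intron.

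RNA was sequenced from cultures of BY4741, a haploid laboratory strain, in 4 groups of 3 libraries each. The groups were left untreated, given 1% methanol, or given 0.5 mM or 2 mM abscisic acid (ABA) dissolved so that the medium held the same 1% methanol. All groups grew for 5 h in the same synthetic medium without tryptophan. The 3 replicates came from different colonies grown on different days, and overnight cultures were used to start the cultures of all 4 groups. The question put to the groups was whether ABA, a plant hormone used to induce the dimerization of tagged proteins, or its solvent methanol changes expression in yeast on its own. The labels and the study's results and methods text name BY4741, while its key resources list names a NAB3-ABI strain for these data.

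The small (40S) subunit of the ribosome reads the mRNA. It is built from one ribosomal RNA, around which its proteins sit in a head with a beak, a platform and a body. The mRNA enters between head and body and leaves at the platform, and the decoding centre lies at the joint between head and body. In budding yeast, ribosomal protein genes are transcribed together at high rates during growth, are held down under starvation and TOR inhibition, and include a large share of the genes with introns. Most are duplicated, so that the amount of a protein is the sum of what both copies give.

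Values were available per group and not per library. A level is a normalized read count (reads divided by a library size factor, mean over the libraries of a group), solved from the mean over all 12 libraries and the fold changes between groups, and its 95% interval comes from the error of that group. A p-value therefore rests on the spread between libraries as the deposited fit modelled it. That fit shares a single spread (dispersion) per gene across all 12 libraries, so an interval does not show the scatter of its own group alone. The depth of single libraries is unknown. Mean levels of the 1042 features ran from 2.51 to 852, with a median of 18.6. One pair of rows needs care: RPS28B and Unit267, a transcript annotated on the same strand over 897 of the exon bases of RPS28B, had identical values in every comparison, so the reads of RPS28B cannot be told apart from those of Unit267.

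The coding sequences of the 24 annotated pairs were 84.3% to 99.2% identical (median 92.7%), and in 9 pairs both copies encode the same protein. Reads that fit both copies equally well were placed at random, so how far 2 copies can be told apart depends on how often they differ. In 12 pairs no stretch of 60 exon bases was shared. Among the pairs that shared most were RPS6, RPS4 and RPS24, with 40.2%, 27.7% and 19.5% of the 60-base windows of the A gene found unchanged in the B gene. The last 90 coding bases of RPS18 and RPS29 are shown, with bases that differ between the copies in capitals. They are shown because RPS18A and RPS29B had the largest and the smallest log2 fold change with 2 mM ABA against methanol. They are given 5′ to 3′ from the R64 genome, at chrIV:1360709-1360798 (plus strand) for RPS18A, chrXIII:222987-223076 (minus strand) for RPS18B, chrXII:898732-898821 (plus) for RPS29A and chrIV:340628-340717 (minus) for RPS29B. All lie in the last coding exon.
RPS18A: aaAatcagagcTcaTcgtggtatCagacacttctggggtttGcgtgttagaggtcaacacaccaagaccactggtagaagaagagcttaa
RPS18B: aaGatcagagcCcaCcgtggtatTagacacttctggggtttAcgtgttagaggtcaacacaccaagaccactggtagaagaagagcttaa
RPS29A: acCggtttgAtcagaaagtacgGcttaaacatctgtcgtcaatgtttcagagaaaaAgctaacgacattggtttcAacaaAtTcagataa
RPS29B: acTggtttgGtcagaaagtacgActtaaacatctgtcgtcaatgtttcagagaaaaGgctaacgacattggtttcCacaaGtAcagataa
The RPS18 copies differed at 5 of these bases and encode the same protein. Those of RPS29 differed at 7, and their proteins differ at 5 residues.

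The 40S genes were among the more abundant of the 1042 features. Their mean levels ran from 12.9 normalized counts for RPS9A, which encodes a protein of the mRNA entry channel, to 115 for RPS20, a protein of the head. Of the 55 genes, 54 were above the median of all features and 26 were above the upper quartile of 46.2. Together they held 5.71% of the summed level of all features in untreated cultures, 5.73% with methanol, 4.83% with 0.5 mM ABA and 5.36% with 2 mM ABA. Their sum stood at 0.728, 0.712, 0.719 and 0.748 of the sum of the 60S ribosomal protein genes in the same order of groups. These shares have no error, since no value per library was used. They refer to the 1042 features alone, which include RNAs that encode no protein, and are not shares of all RNA.

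Genes were compared with each other per kb of coding sequence. On this scale the 55 genes had a median of 102 normalized counts per kb, against 88.3 for 79 genes of the 60S subunit and 14.4 for all protein-coding genes in the tables. All 55 were above that last median, and 48 were above the upper quartile of 59.2. The 4 highest were RPS30B at 422, RPS20 at 315, RPS21B at 294 and RPS29B at 272. RPS30B encodes a short protein of the body, and RPS21B a protein of the platform. The 4 lowest were RPS9A at 21.7, RPS7B at 35.5, RPS0A at 35.6 and RPS4B at 42.5. Each of these is the lower copy of its pair. Per kb of all exons, untranslated ends included, RPS30B stood at 231 and RPS31 came next at 214, while RPS9A, RPS7B, RPS0A and RPS4B remained the 4 lowest. RPS31 encodes a fusion of ubiquitin and a protein of the beak.

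**Figure D1:**
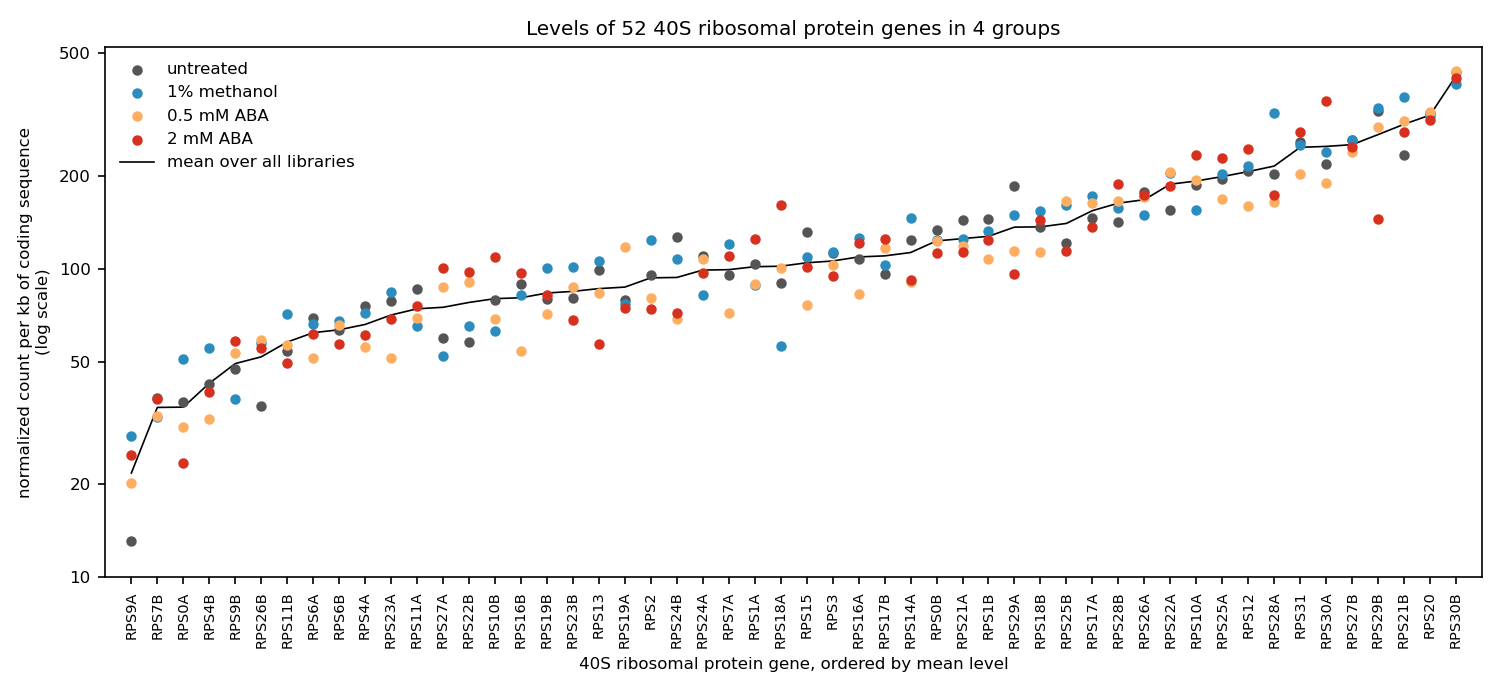
Level of each of 52 of the genes (x axis, ordered by mean level) in normalized counts per kb of coding sequence (y axis, log scale), with a point for each of the 4 groups and a line for the mean over all libraries. Mean levels span 21.7 (RPS9A) to 422 (RPS30B), and for most genes the 4 groups lie close together, with RPS18A, RPS29B, RPS0A and RPS9A over 2-fold apart between their lowest and highest group.

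By place in the subunit, the median level per coding kb was 74.1 for 17 genes of the body, 107 for 16 of the platform and 138 for 22 of the head and beak. Per exon kb the medians were 48.7, 73.5 and 82.6. The 20 genes without an intron had a median of 145 per coding kb, and the 35 with one 86.2. Per exon kb these medians were 96.0 and 58.7. Reads were mapped to the genome, and whether reads that cross an intron were lost, which would lower genes with one, was not tested. Single-copy genes had a median of 128 (n = 8) and members of pairs 99.3 (n = 47). These classes overlap widely: body genes ran from 21.7 to 422, and head and beak genes from 79.9 to 315.

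Summed over both copies, the proteins were closer together than the genes. The 32 sums per coding kb ran from 71.0 for RPS9 to 671 for RPS30, a 9.45-fold span, where single genes spanned 19.4-fold. RPS14 counts with the A gene alone here.

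In the 23 measured pairs the A gene was higher per coding kb in 12 and the B gene in 11. In 8 pairs the copies were over 2-fold apart, with A higher in 4 and B higher in 4, and each of these 8 kept its side in all 4 groups. Over all 23 pairs, 15 kept their side. The 95% interval of the ratio left out equality in every group for 6 pairs and in no group for 8.

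Where A led, the largest ratio was that of RPS26, a platform protein near the mRNA exit: RPS26A stood 3.23-fold above RPS26B per kb, at a mean of 60.2 against 18.6 normalized counts. The log2 ratio of A to B was 2.30 (95% interval 1.396 to 3.200) in untreated cultures, 1.38 (0.45 to 2.31) with methanol, 1.54 (0.61 to 2.47) with 0.5 mM ABA and 1.65 (0.75 to 2.55) with 2 mM ABA. RPS7A was 2.80-fold above RPS7B, whose protein differs at 23 residues, the most of any pair. RPS22A, which has no intron, was 2.42-fold above RPS22B, which has one. Loss of reads across that intron was not tested. RPS10A, a gene of the head, was 2.41-fold above RPS10B. Per exon kb the lead of RPS22A fell below 2-fold, with a log2 ratio of 0.83 in place of 1.27. On that scale RPS28 and RPS30 passed 2-fold, at log2 ratios of A to B of 1.47 in place of 0.40 and -1.40 in place of -0.76. RPS16 changed side, from 0.44 to -0.24.

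Where B led, RPS0B stood 3.46-fold above RPS0A, with log2 ratios of A to B of -1.85 (-2.63 to -1.07), -1.27 (-2.08 to -0.47), -1.997 (-2.84 to -1.15) and -2.26 (-3.09 to -1.43) in untreated, methanol, 0.5 mM and 2 mM ABA cultures. RPS0 is a platform protein needed for the late steps of 40S maturation. RPS27B was 3.37-fold above RPS27A, RPS21B 2.35-fold above RPS21A and RPS9B 2.26-fold above RPS9A. For RPS21 the interval included equality in untreated cultures (-1.45 to 0.04), and for RPS9 it did so with methanol (-1.44 to 0.63). RPS29, at a log2 ratio of -0.997, lay just under the 2-fold line. Of the pairs that shared much sequence, RPS6 and RPS24 were near even, at log2 ratios of -0.03 and 0.08, and RPS4 was at 0.63. Reads placed at random between copies move such ratios towards equality by construction, and how far they did was not tested.

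**Figure D2:**
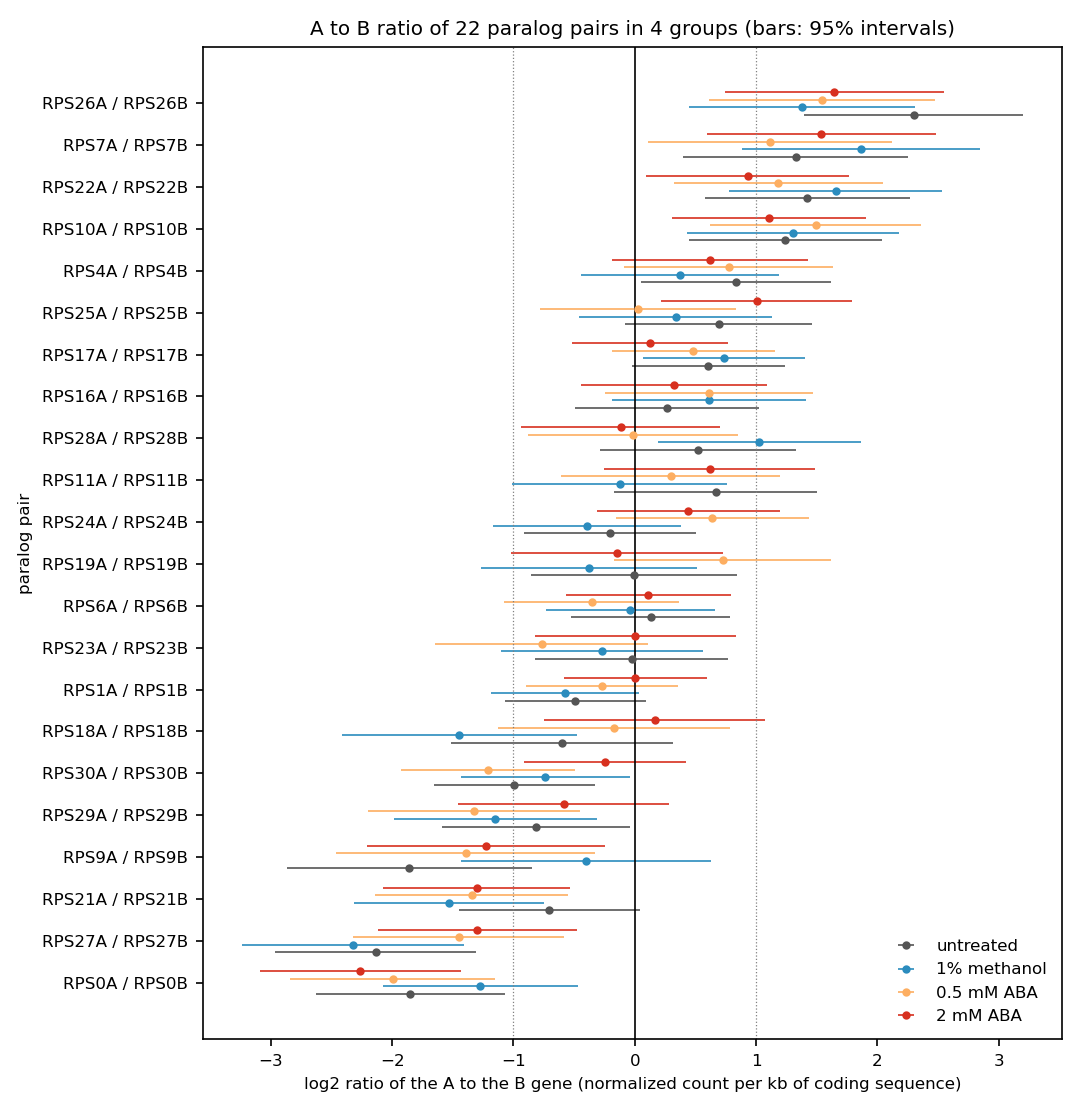
Log2 ratio of the A to the B gene (x axis, normalized counts per kb of coding sequence) for 22 of the measured pairs (y axis, ordered by the ratio over all libraries), with a point and its 95% interval for each of the 4 groups. The dotted lines mark 2-fold. RPS26, RPS7, RPS22 and RPS10 lie to the right of 0 in all groups and RPS0 and RPS27 to the left with intervals that leave out 0, while the RPS18 point moves from -1.45 with methanol to 0.16 with 2 mM ABA.

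Change was tested in 6 comparisons, with a gene called where the log2 fold change was over 1 in size and the adjusted p (Wald test of the authors' DESeq2 fit, Benjamini-Hochberg over all features of the comparison) was at most 0.05. No 40S gene was called in any of them: 0 of 55 for methanol against untreated, 0.5 mM ABA against untreated, 2 mM ABA against untreated, 0.5 mM ABA against methanol, 2 mM ABA against methanol and 2 mM against 0.5 mM ABA. Over all features the share called was 0%, 0.573%, 0.476%, 0%, 0.119% and 0% in the same order, so a count of 0 among 55 genes lies near the background. The features with a value numbered 1042, 698, 840, 1042, 840 and 1042 in that order. Shares and medians of all features in a comparison refer to these. The 6 comparisons share 4 groups and are not independent of each other. For 2 mM ABA against untreated, values were derived from the other estimates and adjusted over 840 features, since the table of that title held 0.5 mM ABA minus methanol.

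At an unadjusted p under 0.05, 0 members were higher and 0 lower with methanol against untreated, where 2.4% and 1.54% of all features were. With 0.5 mM ABA against untreated 0 were higher and 2 lower, beside 5.16% and 2.87% of all features. With 2 mM ABA against untreated 0 were higher and 4 lower, beside 5.71% and 2.5%. With 0.5 mM ABA against methanol 0 were higher and 1 lower, beside 4.03% and 3.45%. With 2 mM ABA against methanol 1 was higher and 5 were lower, beside 5.83% and 4.64%. Between 2 mM and 0.5 mM ABA 3 were higher and 1 lower, beside 3.07% and 2.02%. The lower counts with 2 mM ABA were 7.27% of the members against untreated and 9.09% against methanol, above their backgrounds, and the higher counts of 0% and 1.82% were below them. Under a t distribution (8 degrees of freedom) the counts at an unadjusted p under 0.05 went from 4 to 1 against untreated and from 6 to 3 against methanol. These counts share the 2 mM libraries, and no test of the shares was made. Members also had smaller standard errors than features at large, with medians of 0.38 to 0.41 against 0.45 to 0.59.

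The median log2 fold change of the 55 genes was 0.06 with methanol against untreated (-0.04 once a trend on coding length was removed), and 24 of 55 genes were lower. Against untreated cultures it was -0.15 with 0.5 mM ABA (35 lower) and -0.08 with 2 mM ABA (31 lower), the latter turning to 0.02 with the copies of each pair summed and to 0.04 over the members that share no 60-base stretch with a paralog. Against methanol it was -0.22 with 0.5 mM ABA (35 lower) and -0.10 with 2 mM ABA (36 lower), and between the doses it was 0.10 (22 lower). With the trend on coding length removed, the medians against methanol were -0.12 with 0.5 mM and -0.02 with 2 mM ABA. With copies summed, the median between the doses was 0.02. All features had medians of -0.00, -0.00, 0.03, 0.01, 0.01 and -0.02 in the order of the 6 comparisons. For the 60S genes they were 0.10, -0.12, -0.13, -0.17, -0.21 and -0.05. Of the 4 groups, 0.5 mM ABA was the lowest for 20 genes, 2 mM ABA for 16, methanol for 11 and untreated for 8. The highest group was methanol for 21 genes, 2 mM ABA for 14, untreated for 13 and 0.5 mM ABA for 7.

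**Figure D3:**
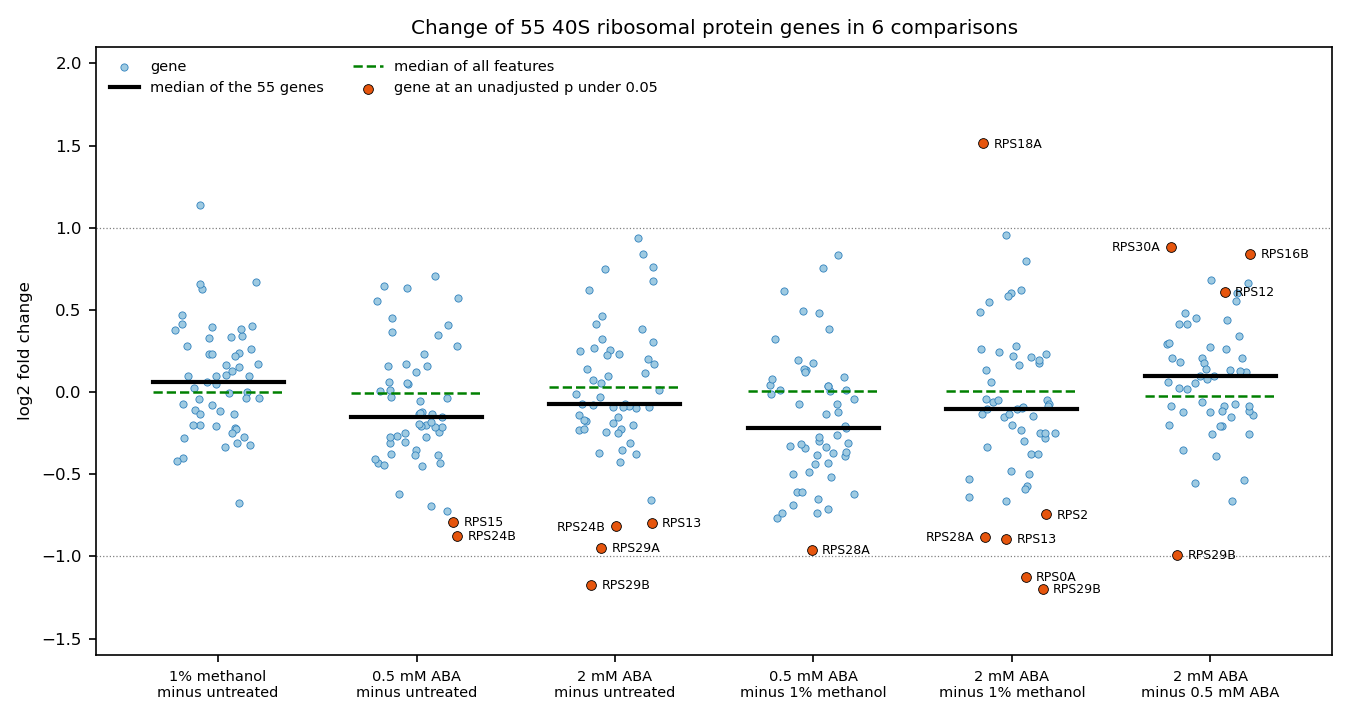
Log2 fold change (y axis) of each of the 55 genes in the 6 comparisons (x axis), with a point per gene (spread sideways at random), the median of the 55 genes as a black line and that of all features as a dashed line. Genes at an unadjusted p under 0.05 are named and the dotted lines mark 2-fold. The medians of the 55 genes lie between -0.22 and 0.10, with those for methanol and for 2 mM ABA against untreated changing sign under other processing, and the farthest genes are RPS18A at 1.51 and RPS29B at -1.20, both in 2 mM ABA against methanol.

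Between methanol and untreated cultures no member reached an unadjusted p of 0.05. RPS9A (YPL081W, chrXVI:404600-406243, plus strand) had the highest value: its level was 7.75 (4.22 to 14.2) normalized counts in untreated cultures and 17.0 (9.40 to 30.9) with methanol, a log2 fold change of 1.14 (-0.09 to 2.36, adjusted p = 0.998). RPS9A is also the member with the fewest reads. RPS18A had the lowest, at -0.67 (-1.59 to 0.24, adjusted p = 0.998). Both intervals include no change.

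With 0.5 mM ABA against untreated, RPS24B and RPS15 were the genes with an unadjusted p under 0.05. RPS24B (YIL069C, chrIX:231326-232569, minus strand), a gene of the body, stood at 51.5 (37.0 to 71.8) in untreated cultures, 44.0 (30.7 to 63.0) with methanol, 28.1 (19.0 to 41.5) with 0.5 mM ABA and 29.2 (20.3 to 42.1) with 2 mM ABA. Its 2 ABA levels were below both groups without ABA, though the intervals overlap. The log2 fold change was -0.88 (-1.62 to -0.14, adjusted p = 0.413) for 0.5 mM and -0.82 (-1.53 to -0.11, adjusted p = 0.494) for 2 mM ABA against untreated. Its paralog RPS24A, which encodes the same protein, was at 44.7, 33.5, 43.7 and 39.6 in the same groups. RPS15 (YOL040C, chrXV:252926-253633, minus strand), a head protein needed for export of the subunit from the nucleus, went from 56.5 (39.8 to 80.4) to 32.7 (21.9 to 48.7) with 0.5 mM ABA, a log2 fold change of -0.79 (-1.56 to -0.02, adjusted p = 0.592), and was at 43.5 with 2 mM. The highest value in that comparison was 0.70 (-0.44 to 1.85, adjusted p = 0.828) for RPS26B.

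Both copies of RPS29, a zinc-binding protein of the head, were at their lowest with 2 mM ABA. RPS29B (YDL061C, chrIV:340403-340798, minus strand) was at 55.7 (39.6 to 78.3) normalized counts in untreated cultures, 56.6 (39.6 to 81.0) with methanol, 49.1 (34.0 to 70.8) with 0.5 mM ABA and 24.7 (16.8 to 36.2) with 2 mM ABA. The interval at 2 mM does not overlap that of untreated or methanol cultures. Its log2 fold change at 2 mM was -1.17 (-1.91 to -0.43, adjusted p = 0.142) against untreated, -1.20 (-1.95 to -0.44, adjusted p = 0.106) against methanol and -0.99 (-1.76 to -0.23, adjusted p = 0.644) against 0.5 mM ABA. At 0.5 mM it was -0.18 (-0.90 to 0.54) against untreated. RPS29A (YLR388W, chrXII:898651-898941, plus strand) was at 31.7 (20.9 to 48.1), 25.6 (16.2 to 40.3), 19.6 (12.1 to 31.7) and 16.4 (10.3 to 26.2) in the same order, with -0.95 (-1.85 to -0.05, adjusted p = 0.566) for 2 mM ABA against untreated. None of these values passed the adjustment over all features. With 2 mM ABA against methanol, RPS29A was not at an unadjusted p under 0.05 (Wald test). The sum of both copies, which has no error here, was 87.4 in untreated cultures, 82.2 with methanol, 68.6 with 0.5 mM ABA and 41.1 with 2 mM ABA.

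RPS13 (YDR064W, chrIV:579380-580539, plus strand), a single-copy gene whose protein sits at the platform side of the subunit, was at 45.1 (31.1 to 65.3), 48.1 (32.6 to 71.0), 38.0 (25.4 to 56.9) and 25.9 (17.3 to 38.8) in untreated, methanol, 0.5 mM and 2 mM ABA cultures. With 2 mM ABA its log2 fold change was -0.80 (-1.59 to -0.01, adjusted p = 0.591) against untreated and -0.89 (-1.70 to -0.09, adjusted p = 0.384) against methanol. The highest member with 2 mM ABA against untreated was again RPS9A, at 0.93 (-0.28 to 2.15, adjusted p = 0.797).

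The largest fold change of any member was that of RPS18A with 2 mM ABA against methanol. RPS18 is a head protein at the interface with the 60S subunit. RPS18A (YDR450W, chrIV:1359871-1360911, plus strand) was at 39.6 (25.9 to 60.7) in untreated cultures, 24.8 (15.5 to 39.8) with methanol, 44.3 (28.4 to 69.1) with 0.5 mM ABA and 70.9 (46.5 to 108) with 2 mM ABA. The methanol level is the lowest of the 4 and the 2 mM level the highest, and their intervals do not overlap. The log2 fold change was 1.51 (0.60 to 2.43), or 2.86-fold (1.52 to 5.38), with an adjusted p of 0.0856. Against untreated cultures it was 0.84 (-0.03 to 1.70, adjusted p = 0.641). With 0.5 mM ABA against methanol it was 0.83 (-0.10 to 1.77, adjusted p = 0.686), the highest of that comparison. RPS18B, with the same protein, was at 60.2, 67.6, 49.9 and 63.3, and its log2 fold change for 2 mM ABA against methanol was -0.10 (-1.07 to 0.87).

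On the lower side of 2 mM ABA against methanol stood RPS29B, RPS0A, RPS13, RPS28A and RPS2. RPS0A (YGR214W, chrVII:920230-922031, plus strand) was at 28.1 (18.5 to 42.6), 38.8 (25.3 to 59.6), 23.3 (14.7 to 37.1) and 17.8 (11.3 to 28.1) in untreated, methanol, 0.5 mM and 2 mM ABA cultures, with a log2 fold change of -1.12 (-2.03 to -0.22, adjusted p = 0.280) for 2 mM ABA against methanol. Its higher copy RPS0B was at 93.7 with methanol and 85.5 with 2 mM ABA, a log2 fold change of -0.13 (-0.85 to 0.59). RPS28A (YOR167C, chrXV:648617-649065, minus strand), a gene of the head near the mRNA exit, had its highest level with methanol: 41.4 (28.5 to 60.1), 65.2 (44.7 to 95.04), 33.5 (22.3 to 50.5) and 35.4 (24.0 to 52.1). It was at -0.96 (-1.76 to -0.16, adjusted p = 0.611) for 0.5 mM and -0.88 (-1.66 to -0.10, adjusted p = 0.384) for 2 mM ABA against methanol, but at -0.23 (-1.002 to 0.55) for 2 mM ABA against untreated. RPS2 (YGL123W, chrVII:277329-278468, plus strand), a body protein of the mRNA entry channel, was likewise highest with methanol, at 94.7 (66.8 to 134) against 73.0 (51.9 to 103) in untreated cultures and 56.5 (39.7 to 80.5) with 2 mM ABA, which gave -0.74 (-1.46 to -0.03, adjusted p = 0.454) against methanol.

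Between the doses, RPS30A, RPS16B and RPS12 were higher with 2 mM than with 0.5 mM ABA at an unadjusted p under 0.05, and RPS29B was lower. RPS30A (YLR287C-A, chrXII:712282-713258, minus strand), whose protein lies near the decoding centre, was at 36.4 (24.9 to 53.3) with 0.5 mM and 67.1 (47.6 to 94.5) with 2 mM ABA, against 42.0 in untreated and 45.8 in methanol cultures. Its log2 fold change between doses was 0.88 (0.14 to 1.62, adjusted p = 0.807). RPS16B (YDL083C, chrIV:306926-307860, minus strand), a head protein whose tail reaches the tRNA in the P site, was at 23.3 (15.1 to 36.0) and 41.7 (28.5 to 61.1), giving 0.84 (0.00 to 1.68, adjusted p = 0.916). RPS12 (YOR369C, chrXV:1028079-1028730, minus strand), a protein of the beak, was at 68.9 (51.4 to 92.2) and 105 (80.5 to 138), giving 0.61 (0.04 to 1.18, adjusted p = 0.850). For RPS16B and RPS12 the level at 0.5 mM was the lowest of the 4 groups, with untreated cultures at 38.5 and 89.8.

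Whether the copies of a pair changed differently was tested as the difference between their log2 fold changes (Wald test on the estimates of the authors' DESeq2 fit). Benjamini-Hochberg adjustment ran over all 55 or 56 measured pairs named A and B. All of these were pairs of ribosomal protein genes, and the 23 40S pairs were among them. The shares of all pairs given below therefore include the 40S pairs and are no background from other genes. With the errors of both copies taken as independent, no 40S pair passed in any comparison, and the smallest adjusted p was 0.456. With a correlation of 0.5 between those errors, 1 pair (RPS18, 2 mM ABA against methanol) passed, and the pairs at an unadjusted p under 0.05 numbered 2, 1, 2, 4, 5 and 2 in the order of the 6 comparisons. With independent errors, 1 of 23 pairs was at an unadjusted p under 0.05 for methanol against untreated (3.57% of all pairs), 0 for 0.5 mM ABA against untreated (1.82%), 0 for 2 mM ABA against untreated (0%), 0 for 0.5 mM ABA against methanol (7.14%), 1 for 2 mM ABA against methanol (3.64%) and 0 between the doses (5.36%). The one with methanol was RPS9, where A moved 1.46 log2 units above B (0.01 to 2.90, SE 0.738, adjusted p = 0.994). The one with 2 mM ABA against methanol was RPS18, at 1.61 (0.28 to 2.94, SE 0.679, adjusted p = 0.543). In untreated cultures RPS18A stood below RPS18B at a log2 ratio per kb of -0.60 (-1.52 to 0.31), with methanol at -1.45 (-2.42 to -0.48), with 0.5 mM ABA at -0.17 (-1.13 to 0.78) and with 2 mM ABA at 0.16 (-0.75 to 1.08). RPS28 was next for 2 mM ABA against methanol, at -1.14 (-2.32 to 0.03, adjusted p = 0.681). The median standard error of such a difference was 0.58 to 0.61, so a pair had to part by over 1 log2 unit to stand out.

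**Figure D4:**
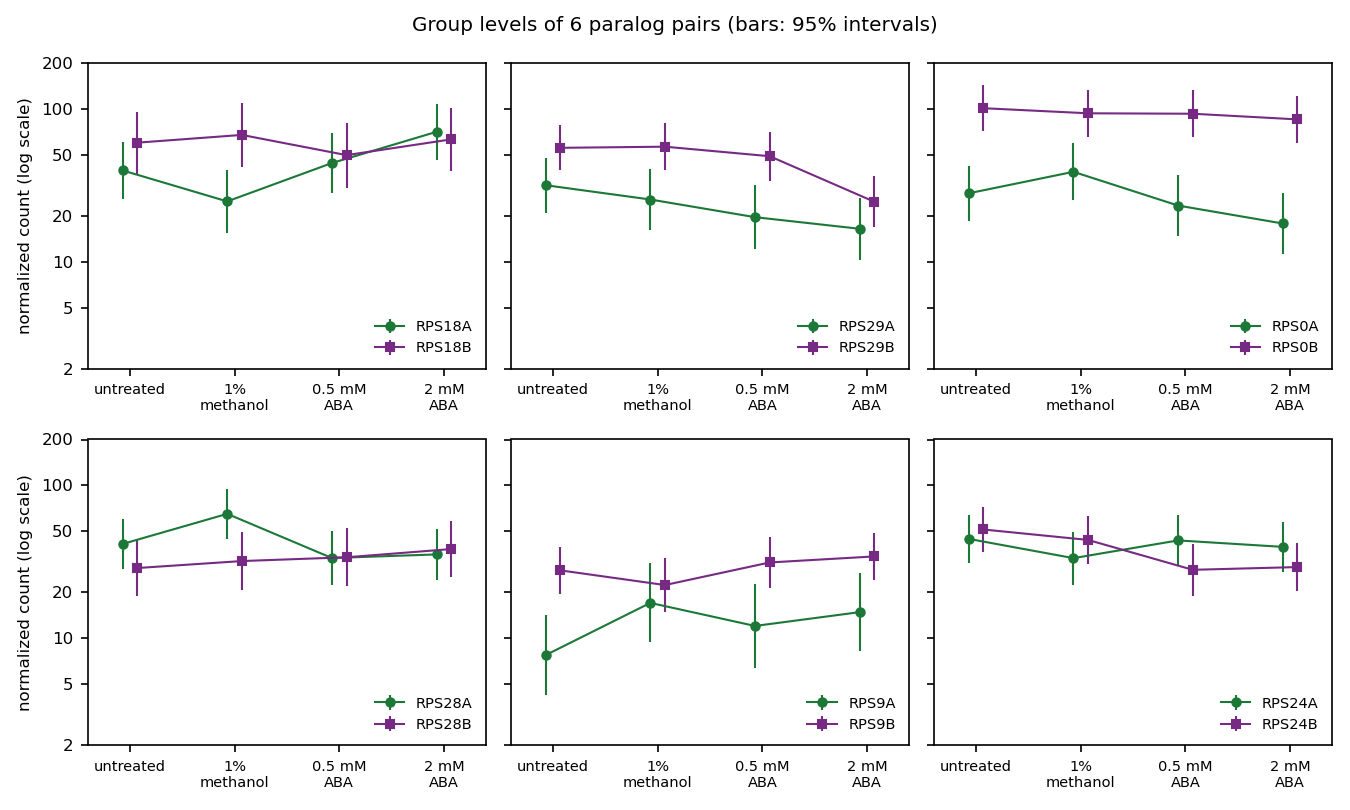
Group levels in normalized counts (y axis, log scale) of both copies of 6 pairs (panels) in the 4 groups (x axis), with 95% intervals as bars. RPS18A runs from 24.8 with methanol to 70.9 with 2 mM ABA while RPS18B stays between 49.9 and 67.6, both RPS29 genes are lowest with 2 mM ABA, and RPS0A stays below RPS0B in all groups.

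For 11 members the 95% interval stayed within 2-fold in all 6 comparisons, RPS0B, RPS3, RPS20, RPS30B and RPS31 among them. RPS20 was the steadiest over the groups, at 117 (90.2 to 152), 114 (86.9 to 151), 118 (89.5 to 155) and 111 (85.1 to 146), a span of 1.06-fold. For 12 members the interval reached beyond 2-fold in every comparison. The first set had a median level of 80.9 and the second of 26.2, though RPS18B, RPS14A and RPS18A, at 60.2, 46.7 and 44.9, were among the latter. Between the lowest and the highest group the 55 genes spanned a median of 1.45-fold, and 4 spanned more than 2-fold. Per comparison, 21 to 28 members had an interval within 2-fold.

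Other genes of translation were read from lists of pathway members. No gene of these lists was called in any comparison by the same rule on the authors' DESeq2 fit. With 2 mM ABA against methanol, 0 of 78 60S genes were higher and 3 lower at an unadjusted p under 0.05, beside 5.83% and 4.64% of all features. Below 0 were 54 of the 78, and 415 of all 840 features. The largest and smallest Wald statistics there were those of RPL39, at a log2 fold change of 0.59 (-0.01 to 1.196, adjusted p = 0.461), and of RPP1B, a protein of the stalk, at -1.56 (-2.57 to -0.55, adjusted p = 0.131). Of 3 other proteins that bind the 40S subunit, ASC1, which sits on the head, was at 0.06 (-0.58 to 0.70) and TMA19 at -0.39 (-0.95 to 0.17). Of 7 tested genes of 40S assembly, UTP20, part of the early processome, was at 1.78 (0.53 to 3.03, adjusted p = 0.165) and the helicase gene PRP43 at -1.55 (-3.25 to 0.15, adjusted p = 0.504).

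In the same comparison, 2 mM ABA against methanol, 1 of the assembly genes was higher and 0 lower at an unadjusted p under 0.05. The 15 tested initiation factors gave the same counts, beside 5.83% and 4.64% of all features. In the lists of other 40S-bound proteins, elongation and termination factors, regulators and mitochondrial proteins, 0 were higher and 0 lower by that rule in this comparison. CDC33, which encodes the cap-binding protein, had 1.22 (0.11 to 2.33, adjusted p = 0.386) and SUI2 -0.49 (-1.84 to 0.86). Of 12 elongation and termination factors, NEW1 had 0.77 (-0.20 to 1.74) and HYP2, whose row is identical with that of the neighbouring gene MTC7, had -0.62 (-1.29 to 0.06). Among 9 regulators of ribosomal protein genes only HMO1 was tested in this comparison, at 0.41 (-1.10 to 1.92). Of the mitochondrial small subunit, MRP13 was at 0.13 (-1.09 to 1.35) and VAR1, which is encoded in the mitochondrial genome, at -0.98 (-1.98 to 0.03). With 0.5 mM ABA against methanol, 1 of 79 60S genes was higher and 5 were lower by the same rule. The lists of initiation factors, other 40S-bound proteins, regulators and mitochondrial proteins each had 1 gene lower. The 40S assembly list and the elongation and termination list each had 1 higher there. Of all features 4.03% were higher and 3.45% lower.

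Promoters were read because yeast ribosomal protein genes are known for shared binding sites of the factor Rap1. The letters ACCCNNACA, a core of that site, were searched on both strands in the 500 bases before the annotated transcript start. They were found for 18 of 56 40S genes (32.1%) and 38 of 76 genes named RPL (50%), against 371 of 6664 nuclear protein-coding genes (5.57%). Of the 40S genes 6 had more than 1 match. The 24 matches lay 32 to 490 bases before the start, with a median of 220. The members with a match had a median level of 90.3 per coding kb (n = 18), and those without 123 (n = 37). Among the 6 members at an unadjusted p under 0.05 with 2 mM ABA against methanol, RPS0A, RPS13 and RPS2 held a match and RPS18A, RPS28A and RPS29B did not. The matches of the former are shown 5′ to 3′ in the direction of the gene, with the match in capitals, from chrVII:920059-920098, chrIV:579213-579252 and chrVII:277214-277253 (all on the plus strand).
RPS0A: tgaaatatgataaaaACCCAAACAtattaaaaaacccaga
RPS13: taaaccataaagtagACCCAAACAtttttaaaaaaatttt
RPS2: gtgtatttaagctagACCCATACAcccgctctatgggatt
RPS0A has another match 138 bases before its start. A match in these letters is a description of the sequence and no measure of binding.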

How the data were processed

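The 12 libraries (3 per group, read in 24 files of forward and reverse reads) were made from total RNA after removal of ribosomal RNA, fragmentation and barcoding. The authors trimmed reads with Flexbar, collapsed duplicates and counted with pyCRAC, and mapped with Novoalign against R64, with equal hits assigned at random. The authors then ran DESeq2, for which the sources used here give no version.

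Only results of that fit were used, as the measurements. Its mean column is a signal deposited by the authors (size-factor-scaled reads, mean of the 12 libraries). Fold changes and standard errors are log2 values deposited by the authors, the Wald statistic is a deposited score, and each p-value, raw or adjusted, is as deposited except where derived as described next. The tables held 1042, 698, 1042, 840 and 1042 rows, selected in a way the sources used here do not state. Depth per library is unknown and no count model was run. Replicates were compared only through these errors.

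One table, titled for 2 mM ABA and untreated cultures, matched the difference between 0.5 mM ABA and methanol to 7.99e-15 and was treated as that. The 2 mM to untreated contrast was derived for 840 features: fold changes were summed, errors came from group variances solved from the squared standard errors, and normal p-values were adjusted by Benjamini-Hochberg. Intervals are the estimate plus or minus 1.96 standard errors. Pairs were tested by a Wald z on the difference in log2 fold change, with errors taken as independent. Code was tested on simulated data. Gene positions come from the deposited annotation and bases from the R64 reference, where all 6664 nuclear coding sequences checked begin with ATG.

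Genes were named with values when at an unadjusted p under 0.05 in any comparison, among the 4 highest or 4 lowest per kb, in pairs over 2-fold apart or changed differently, at the extremes of a comparison or, in each other list, at the largest or smallest Wald statistic for 2 mM ABA against methanol. Some members count in the totals but are not reported singly here. Other genes were named after their values were seen. The members and lists were chosen with earlier results of these data known. Alternatives were other thresholds, a t distribution, centring, GC and length trends, a count minimum, summed copies and correlated errors. Software was matplotlib 3.10.9, Biopython 1.88, scipy 1.17.1, pandas 2.3.3 and numpy 2.4.6 under Python 3.11.15.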

Additional observations from a re-analysis of the deposited data

How the results depend on the processing

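No 40S gene was called under any alternative except at an adjusted p threshold of 0.1, where 1 was (RPS18A, 2 mM ABA against methanol). With a t distribution of 8 degrees of freedom its adjusted p was 0.736, and over the other alternatives it ran down to 0.0808. The number of members at an unadjusted p under 0.05 went with that t distribution from 2 to 1 (0.5 mM ABA against untreated), from 4 to 1 (2 mM ABA against untreated), from 6 to 3 (2 mM ABA against methanol) and from 4 to 2 (between doses). Centring on the median of all features left each of these counts unchanged. Pairs at an unadjusted p under 0.05 numbered 0 with the t distribution for methanol against untreated, in place of 1. With a correlation of 0.5 between the errors of the copies they numbered 2, 1, 2, 4, 5 and 2 in the order of the 6 comparisons, and 1 pair (RPS18, 2 mM ABA against methanol) then passed the adjustment. Smaller errors follow from that correlation by construction. Medians of the 55 genes ran over the alternatives from -0.04 to 0.07 for methanol against untreated and from -0.11 to 0.04 for 2 mM ABA against untreated, the 2 that changed sign. The other medians kept their sign but moved in size. They ran from -0.19 to -0.10 for 0.5 mM ABA against untreated and from -0.23 to -0.12 for 0.5 mM ABA against methanol. For 2 mM ABA against methanol they ran from -0.11 to -0.02, and between the doses from 0.02 to 0.12. The restriction to members that share no 60-base stretch with a paralog was chosen after seeing the data. So were lengths from all exons and counts with no length. Lengths from all exons gave 9 pairs over 2-fold apart in place of 8, with RPS28 and RPS30 added and RPS22 lost. Counts with no length gave 8.

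No paired analysis was possible because the tables hold no values of single libraries, and leaving out a library was not run for the same reason. Replicates came from colonies grown on different days, and the sources used here do not state whether the deposited fit took the day into account. For 12 members, of low and of ordinary level, the interval reached beyond 2-fold in every comparison.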

Other observations

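RPS14A, a platform protein gene, had the widest error of the 55 genes, with a median standard error of 0.761 over the 6 comparisons at a mean of 46.7 normalized counts. The 10 members nearest to it in level (44.1 to 48.8) had median standard errors of 0.343 to 0.460. Its group levels were 51.1 (24.8 to 105), 60.3 (29.1 to 125), 37.4 (17.8 to 78.5) and 38.0 (18.3 to 79.0) in untreated, methanol, 0.5 mM and 2 mM ABA cultures, and these intervals overlap. Which library or libraries carry that spread was not tested, since no value per library was used.

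The intron of RPS22B holds the small nucleolar RNA snR44, which guides pseudouridylation of ribosomal RNA. RPS22B was at 22.8 (14.2 to 36.4), 25.5 (15.6 to 41.8), 35.7 (22.1 to 57.6) and 38.2 (24.1 to 60.7) in the same order of groups. snR44 had a mean of 17.0 and a log2 fold change of 1.43 (0.22 to 2.64, adjusted p = 0.451) for 2 mM ABA against untreated. RPS22B had 0.75 (-0.20 to 1.70) there. For 2 mM ABA against methanol snR44 was at 1.14 (-0.11 to 2.38), and for 0.5 mM ABA against untreated at 1.21 (-0.02 to 2.44). Both of these intervals include no change. Neither RNA passed the adjustment in these comparisons. The exons annotated for RPS22B share no base with snR44, but whether reads of snR44 entered the count of RPS22B was not tested.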
